A study of Mus musculus with 6 samples.

Results

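The cytosolic ribosome of the mouse is built from a large and a small subunit, and its protein genes carry symbols that begin with Rpl and Rps. Members were chosen by symbol alone: Rpl or Rps (Rplp for the acidic stalk proteins), a number, and no suffix or one of a, l, l1, x and al. The rule found 83 genes, 52 of the large and 31 of the small subunit, among 22105 features with a gene identifier in a table of 22806 features. It used no measured value. It takes in 8 genes for paralogs of ribosomal proteins and leaves out genes that encode ribosomal or ribosome-bound proteins under other symbols, some of which are described separately.

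Messenger RNA was sequenced from 4T1 cells, an established mouse mammary carcinoma line. The control group received phosphate-buffered saline (PBS) and the treated group received nanoparticles named CM-PEG-PLGA@DOX/R848 at a doxorubicin equivalent of 2 µg/mL, and each exposure lasted 24 h. DOX is doxorubicin, an anthracycline that poisons topoisomerase II, and R848 is resiquimod, an agonist of the endosomal receptors TLR7 and TLR8. Each group had 3 libraries of 1 cell line, and no library of empty particles or of either free drug was analysed here. The labels do not state whether libraries of a group are separate cultures; p-values therefore measure only their spread, which may be technical.

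The ribosome translates messenger RNA: the small subunit reads the codons and the large subunit forms the peptide bonds. Each ribosomal protein is present as a single copy in a ribosome, apart from the P1 and P2 stalk proteins, and cells make these proteins in matched amounts. Their messenger RNAs start with a run of pyrimidines, the terminal oligopyrimidine (TOP) tract, through which mTOR signalling and LARP1 control their translation and storage. When ribosome assembly is disturbed, RPL5 and RPL11, bound to 5S ribosomal RNA, can bind the p53 ligase MDM2.

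Levels are given in FPKM, fragment counts corrected for transcript length and library total, so that genes of different length can be compared. The deposited values give no read counts and the depth of the libraries is unknown. Fold changes are differences of log2(FPKM + 1), nanoparticle minus PBS, and a gene was called when its p-value from limma, adjusted over all 10863 genes tested, was under 0.05. The sum of FPKM over the table was 423629 ± 1890 (SD, n = 3) in the PBS libraries and 471371 ± 2584 (SD, n = 3) in the nanoparticle libraries. Among 6 epithelial markers, 5 were higher without overlap in the nanoparticle libraries. Krt18 went from 514 to 685 FPKM, and Epcam, which overlapped, was near 0.55 and 0.64 FPKM. The 6 macrophage markers summed to between 10.6 and 14.2 FPKM in PBS and between 35.4 and 39.1 in nanoparticle libraries. Nearly all of the sum was Cd68, but all 6 were higher without overlap in the nanoparticle libraries. Csf1r went from a mean of 0.0416 to 1.45 FPKM. Ptprc and Adgre1, at 0 in every PBS library, had means of 0.527 and 0.0633 FPKM with nanoparticles. The 5 fibroblast markers summed to between 20.6 and 21.1 FPKM in PBS and between 5.05 and 6.29 in nanoparticle libraries, nearly all of it Pdgfra, which fell. The other 4 fibroblast markers were under 0.6 FPKM in every library and higher without overlap in the nanoparticle libraries, with Dcn and Thy1 at 0 in every PBS library. The part of these markers in the results below was not tested. In bulk samples, fewer cells of a type and less RNA per cell cannot be told apart.

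Of the 83 genes, 79 passed the filter on low values (1 FPKM or more in at least 3 libraries), 49 of the large and 30 of the small subunit. The other 4 are paralog genes at or near 0. Among the 79, 38 were called higher in the nanoparticle libraries (48.1%), 18 lower (22.8%) and 23 were not called. Over all genes tested, 86.4% were called, 40.5% higher and 46% lower, so the share of ribosomal protein genes called in either direction, 70.9%, lay below the background. In the large subunit 20 rose, 13 fell and 16 were not called, and in the small subunit 18 rose, 5 fell and 7 were not called. The libraries of the groups did not overlap for 56 of the 79 genes, against 87.2% of all genes tested.

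The differences were small in size. A call with a change of at least 1.5-fold was made for 10 genes as higher, against 21.5% of all genes tested, and for 4 genes as lower, against 26.7%. Of these 10, 4 belong to the large and 6 to the small subunit, while the 4 lower genes all belong to the large subunit. The median log2 fold change was 0.11 over the 79 genes, 0.06 over the large subunit (middle 50% of genes from -0.15 to 0.29) and 0.17 over the small subunit (0.04 to 0.27). Over all genes tested it was -0.06, with the middle 50% from -0.64 to 0.50. The median size of the log2 change regardless of sign was 0.23 for ribosomal protein genes, 0.56 for all genes tested and 0.52 for the 1334 other genes at 50 FPKM or more.

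**Figure D1:**
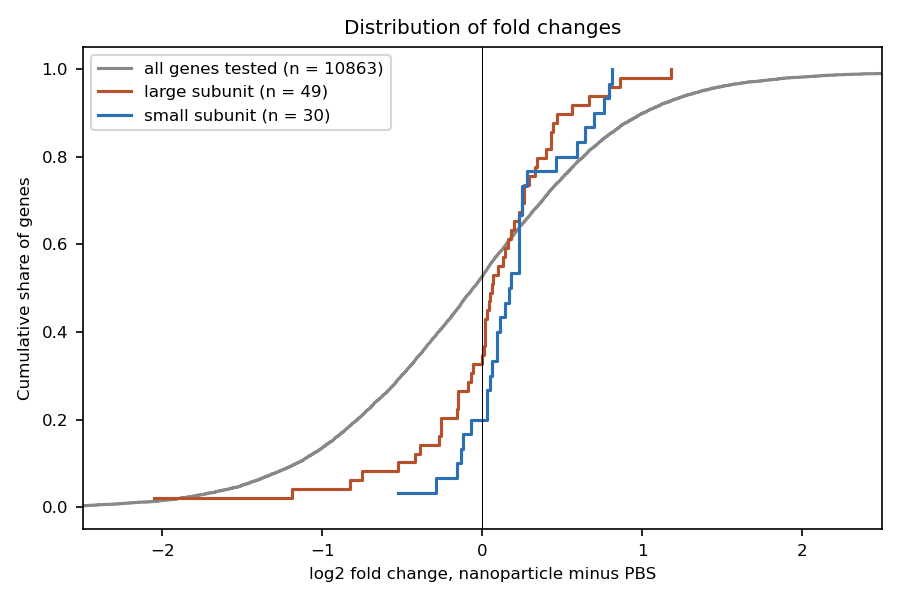
Cumulative share of genes (y axis) by log2 fold change, nanoparticle minus PBS (x axis), for all 10863 genes tested, the 49 large subunit genes and the 30 small subunit genes. On the scale as deposited both ribosomal curves climb steeply near 0, with medians of 0.06 and 0.17, whereas the curve of all genes is broad.

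The direction of the group as a whole depends on the scale. Expressed as shares of the FPKM total (TPM), the median log2 fold change of all genes tested was -0.19 in place of -0.06, and 24 ribosomal protein genes were called higher and 32 lower. Relative to the median of all genes, the median ribosomal protein gene stood 0.16 higher on the log2 FPKM scale and 0.14 higher on the log2 TPM scale, and 57 of 79 genes lay above that median on either scale. It lay below that of other abundant genes. The 1334 other genes at 50 FPKM or more had a median of 0.28 as deposited, against 0.11 for the ribosomal protein genes. Of these other genes, 60.9% were called higher and 31.2% lower. The members are short genes: their median genomic span was 3.24 kb and their median exonic length 1.78 kb, against 23.2 kb and 4.47 kb for all genes tested. Across 10836 genes, longer span went with lower log2 fold change (Pearson's r = -0.48, Spearman's rho = -0.49), while across the 79 ribosomal protein genes r was -0.19 and rho -0.12; genes share libraries and are not independent replicates. With the trend in span and exonic length removed, 9 ribosomal protein genes were called higher and 57 lower, and 16 of 79 lay above the median of all genes. All 18 genes called lower stayed called lower on each of these scales, and 24 of the 38 called higher stayed higher on each scale of the totals. With the trend removed as well, 9 remained: Rpl7l1 (0.53), Rplp0 (0.40), Rplp1 (0.39), Rpl41 (0.26) and Rpl37a (0.14) of the large subunit, and Rps15a (0.51), Rps12 (0.46), Rps21 (0.17) and Rps27l (0.17) of the small subunit.

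**Figure D2:**
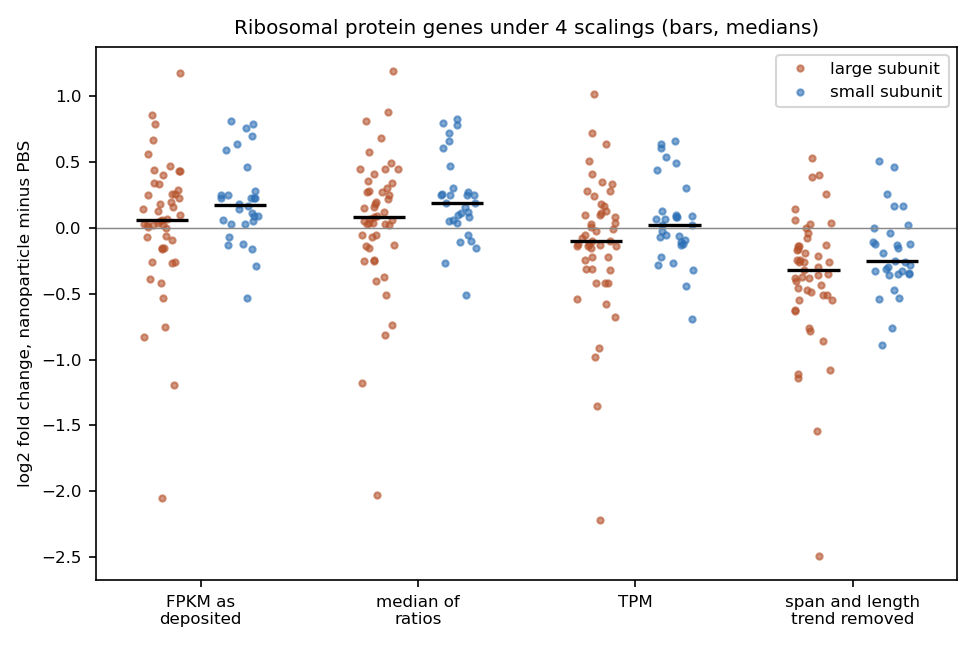
Log2 fold change, nanoparticle minus PBS (y axis), of each large and small subunit gene as deposited, after median-of-ratios scaling, as TPM, and with the trend in span and exonic length removed (bars, medians). The medians of the large and small subunit are 0.06 and 0.17 as deposited, -0.10 and 0.02 as TPM and -0.32 and -0.25 with the trend removed.

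Start regions are shown for genes that were called in opposite directions, since the TOP tract is the feature that ribosomal protein messenger RNAs are known to share. Sequences are from RefSeq on GRCm38.p6, 50 bases before to 30 bases after an annotated start, 5′ to 3′ on the gene's strand. Capitals mark the longest run of C and T. The first base of the run, counted from the annotated start, was at -5 in Rplp2, 9 in Rps12 and 12 in Rplp0. In Rpl5, Rpl11, Rpl22l1 and Rps18 that base was at -20, 14, 2 and -2. A TOP tract begins at the start of the messenger RNA, so a marked run is not shown to be one. Rplp2, at chr7:141447601-141447680 on the plus strand, and Rps12, at chr10:23787180-23787259 on the minus strand, were called higher. Rpl5, at chr5:107900478-107900557 on the plus strand, Rpl11, at chr4:136053364-136053443 on the minus strand, Rpl22l1, at chr3:28805458-28805537 on the plus strand, and Rps18, at chr17:33955636-33955715 on the minus strand, were called lower. Rplp0, at chr5:115559417-115559496 on the plus strand, was called higher and has a run of 7 bases.
Rplp2: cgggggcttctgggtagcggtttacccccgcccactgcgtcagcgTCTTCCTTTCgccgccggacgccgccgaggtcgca
Rps12: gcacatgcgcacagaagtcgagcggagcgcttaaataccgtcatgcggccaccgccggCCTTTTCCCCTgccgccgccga
Rplp0: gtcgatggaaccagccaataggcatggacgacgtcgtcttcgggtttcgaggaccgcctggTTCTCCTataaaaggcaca
Rpl5: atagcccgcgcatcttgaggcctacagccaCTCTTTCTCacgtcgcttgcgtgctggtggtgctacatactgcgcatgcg
Rpl11: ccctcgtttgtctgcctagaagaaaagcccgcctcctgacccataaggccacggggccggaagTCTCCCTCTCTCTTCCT
Rpl22l1: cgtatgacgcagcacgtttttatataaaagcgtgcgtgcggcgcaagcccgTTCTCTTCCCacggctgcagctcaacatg
Rps18: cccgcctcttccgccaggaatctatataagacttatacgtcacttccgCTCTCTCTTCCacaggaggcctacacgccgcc

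A RefSeq start region was matched by symbol for 62 of the 83 genes. A run of at least 8 C or T bases within this window was found in 40 of them (64.5%), in 33.6% of 27025 genes with a RefSeq start region and in 31.8% of the tested genes among these. Where a gene had several starts, a run at any of them counted, and the start with the longest run was printed. The run was present in 58.6% of 29 genes called higher, 83.3% of 12 called lower and 66.7% of 18 not called. The motif CCGGAAG, the core of ETS factor sites, was searched on both strands from 250 bases before to 50 bases after the start. It was present in 38.7% of the ribosomal protein genes, 9.93% of all genes with a start region and 22% of the tested ones. It appeared in 37.9% of genes called higher and 41.7% of genes called lower. A match is a description of the letters and not of a bound site.

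The stalk of the large subunit, which recruits the translation factors that hydrolyse GTP, held the gene with the largest rise, Rplp1. It consists of the P0 protein (Rplp0), the P1 and P2 proteins (Rplp1 and Rplp2) and the base protein Rpl12, and all 4 genes rose. Rplp1 (ENSMUSG00000007892, 3 exons at most per transcript, chromosome 9 from 61913284 to 61914542) measured 1157, 1127 and 1168 FPKM in the PBS libraries and 2549, 2621 and 2636 FPKM in the nanoparticle libraries. The groups were far apart, with the lowest nanoparticle library more than 1000 FPKM above the highest PBS library. The mean went from 1150 ± 21.4 to 2602 ± 46.7 (SD, n = 3), a log2 fold change of 1.18 with a standard error of 0.026 (adjusted p = 2.06e-10, limma), and 0.39 after the trend in span and length was removed. Rplp1 was the fifth highest of the ribosomal protein genes in PBS and the highest in the nanoparticle group.

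Rplp0 (ENSMUSG00000067274) measured 802, 792 and 814 FPKM in PBS and 1421, 1351 and 1408 FPKM with nanoparticles, again without overlap. Its log2 fold change was 0.79 with a standard error of 0.027 (adjusted p = 3.08e-09, limma). Rpl12 rose from 687 ± 17.5 to 868 ± 26.1 FPKM (SD, n = 3), a log2 fold change of 0.34. Rplp2 rose least, from 281, 250 and 277 FPKM to 294, 300 and 334 FPKM, a log2 fold change of 0.20 (adjusted p = 0.0137, limma). Rplp2 was no longer called at an adjusted p under 0.01 or as TPM (0.04). After removal of the trend in span and length, Rpl12 was not called (-0.04) and Rplp2 was lower (-0.17).

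P1 and P2 form heterodimers on P0. The ratio of Rplp1 to Rplp2 in FPKM was 4.11, 4.51 and 4.21 in PBS and 8.67, 8.74 and 7.90 with nanoparticles. The ratio of Rplp0 to Rplp2 went from 2.99 ± 0.167 to 4.52 ± 0.308 (SD, n = 3). Neither set of ratios overlapped between groups. Among 6 ratios compared in all, the exact two-sided permutation test gave p = 0.1 for both, the smallest p that 3 libraries against 3 allow, and 0.12 after Benjamini-Hochberg adjustment.

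**Figure D3:**
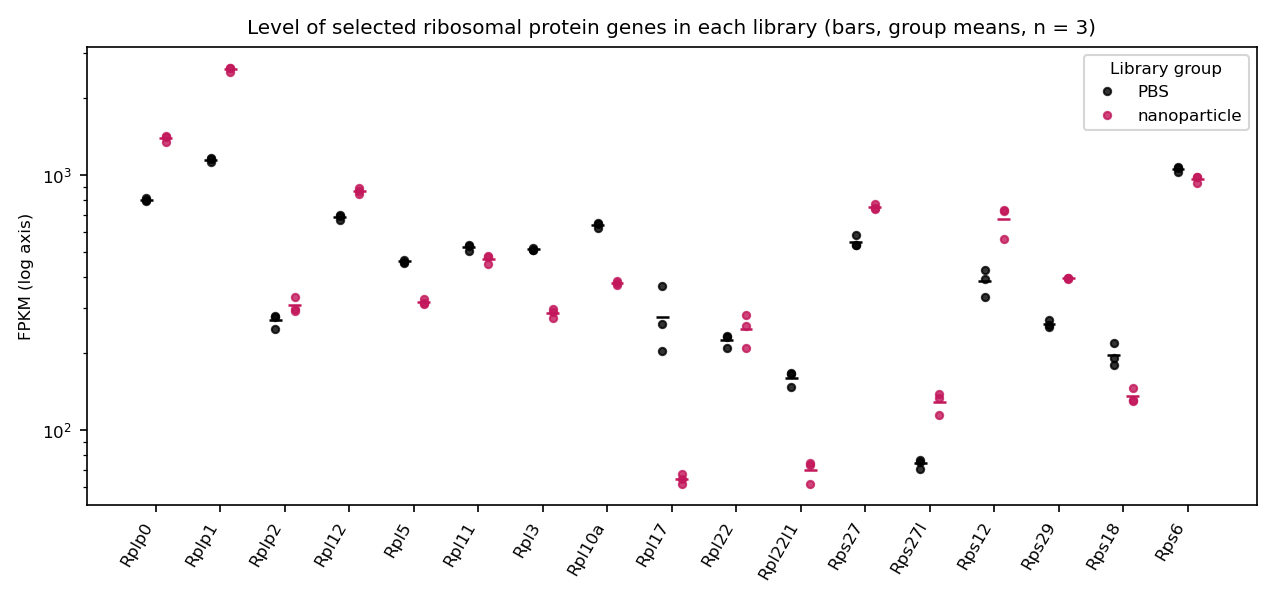
Level in FPKM (log axis) of selected ribosomal protein genes in each PBS and nanoparticle library, with bars at the group means (n = 3). Rplp1 and Rplp0 stand higher in all 3 nanoparticle libraries, Rpl3, Rpl10a, Rpl17 and Rpl22l1 stand lower, and the PBS libraries of Rpl17 spread from 204 to 366 FPKM.

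The genes for the 5S particle moved the other way. Rpl5 (ENSMUSG00000058558), which with Rpl11 carries 5S ribosomal RNA into the large subunit, measured 453, 458 and 466 FPKM in PBS and 316, 314 and 326 FPKM with nanoparticles. Every nanoparticle library lay below every PBS library, and the log2 fold change was -0.53 with a standard error of 0.026 (adjusted p = 3.44e-08, limma). Rpl11 measured 529, 503 and 534 FPKM in PBS and 477, 448 and 482 FPKM with nanoparticles, a smaller fall of 0.15 on the log2 scale (adjusted p = 0.0023, limma). Of the exonic bases of Rpl5, 24.3% overlap exons of Fam69a on the opposite strand, and the sources used here do not say whether the libraries kept strand.

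Proteins around the peptidyl transferase centre, where peptide bonds form, did not move together. Rpl3 (ENSMUSG00000060036) measured 518, 509 and 509 FPKM in PBS and 276, 298 and 290 FPKM with nanoparticles. This was a fall of 0.83 on the log2 scale with a standard error of 0.030 (adjusted p = 5.10e-09, limma). Rpl10, which closes the tRNA pocket late in assembly, fell from 1293 ± 28.8 to 1074 ± 22.9 FPKM (SD, n = 3; log2 fold change -0.27). Rpl8 rose from 781 ± 12.6 to 886 ± 29.0 FPKM (log2 fold change 0.18), but was not called as TPM (0.03) and was lower after the trend was removed (-0.24).

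Around the exit tunnel, through which the new chain leaves, 4 of 9 genes rose, 1 fell and 4 were not called, with a median log2 fold change of 0.10. The share that rose, 44.4%, was near the 40.5% of all genes tested. Rpl23a, part of the docking site for the signal recognition particle, rose from 1152 ± 72.1 to 1553 ± 52.2 FPKM, and Rpl31, at the tunnel rim, from 362 ± 5.78 to 489 ± 4.26 FPKM (SD, n = 3). Both had a log2 fold change of 0.43. After the trend was removed, Rpl23a was lower (-0.16) and Rpl31 was not called (0.04). Exons of Tlcd1 cover 59.7% of the exonic bases of Rpl23a on the opposite strand, and exons of Tbc1d8 cover 25.3% of those of Rpl31. Other members overlap too, such as Rpl35 with Wdr38 (66.2%, opposite strand), Rpl24 with Gm28037 (47%, same strand) and Rpl13a with Gm45713 (29.4%, same strand).

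Rpl17, also at the tunnel exit, had the largest change of any ribosomal protein gene. It measured 366, 261 and 204 FPKM in PBS and 61.4, 64.1 and 67.1 FPKM with nanoparticles. The PBS libraries differed from each other, with a coefficient of variation of 29.6% against a median of 4.49% over the members, yet every one of them lay above every nanoparticle library. The log2 fold change was -2.05 with a standard error of 0.232 (adjusted p = 0.000712, limma).

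Elsewhere in the large subunit, Rpl10a (ENSMUSG00000037805), a protein of the L1 stalk that moves with the leaving tRNA, measured 648, 618 and 646 FPKM in PBS and 377, 372 and 383 FPKM with nanoparticles. Its fall of 0.75 on the log2 scale had a standard error of 0.027 (adjusted p = 4.19e-09, limma). Rpl41, which encodes a very short basic peptide, and Rpl37a, a zinc-binding protein, went from 725 ± 45.5 to 1151 ± 53.4 FPKM and from 364 ± 14.8 to 539 ± 29.2 FPKM (SD, n = 3), with log2 fold changes of 0.67 and 0.56. Rpl13a, known also for the GAIT complex that restrains translation in interferon-treated myeloid cells, went from 1057 ± 25.1 to 1156 ± 19.5 FPKM. Its log2 fold change of 0.13 was called on the FPKM scale but was -0.02 as TPM and -0.24 with the trend removed. Rpl18 had a log2 fold change of -0.39 (adjusted p = 0.0149, limma), and this call was lost without PBS library 2 (adjusted p = 0.0564, limma).

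Other genes of the large subunit are named here without a rule on the size of their change. Rpl29, Rpl30, Rpl35, Rpl15, Rpl24, Rpl38, Rpl6 and Rpl4 were called higher, with log2 fold changes from 0.10 (Rpl4) to 0.47 (Rpl29). Rpl38, which is needed for patterned translation of Hox messenger RNAs in the embryo, went from 165 ± 3.36 to 198 ± 8.68 FPKM (SD, n = 3). Rpl6 and Rpl4 were not called as TPM (0.01 and -0.05), and none of the 8 stayed higher after the trend was removed. Rpl29, Rpl30 and Rpl15 were then not called, and Rpl38 (-0.55), Rpl24 (-0.26), Rpl4 (-0.26), Rpl6 (-0.21) and Rpl35 (-0.14) were called lower. Rpl13, Rpl36, Rpl27a and Rpl23 were called lower, from -0.42 (Rpl13) to -0.16 (Rpl23). Rpl23, another protein known to bind MDM2, went from 569 ± 27.7 to 508 ± 23.8 FPKM. Among the genes not called as deposited were Rpl7a, Rpl9, Rpl14, Rpl19, Rpl21, Rpl26, Rpl27, Rpl28, Rpl32, Rpl34, Rpl35a and Rpl37. With the trend removed, all of these but Rpl7a and Rpl21 were called lower, from -0.51 (Rpl19) to -0.30 (Rpl35a). As TPM, Rpl9, Rpl14, Rpl19, Rpl27, Rpl28, Rpl32, Rpl34 and Rpl37 were called lower too. For Rpl7a (770, 695 and 667 FPKM in PBS and 714, 794 and 1025 FPKM with nanoparticles) and Rpl21 (2.68, 2.64 and 2.26 FPKM in PBS and 5.03, 6.38 and 1.45 FPKM with nanoparticles) the nanoparticle libraries differed from each other by more than the group means did.

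**Figure D4:**
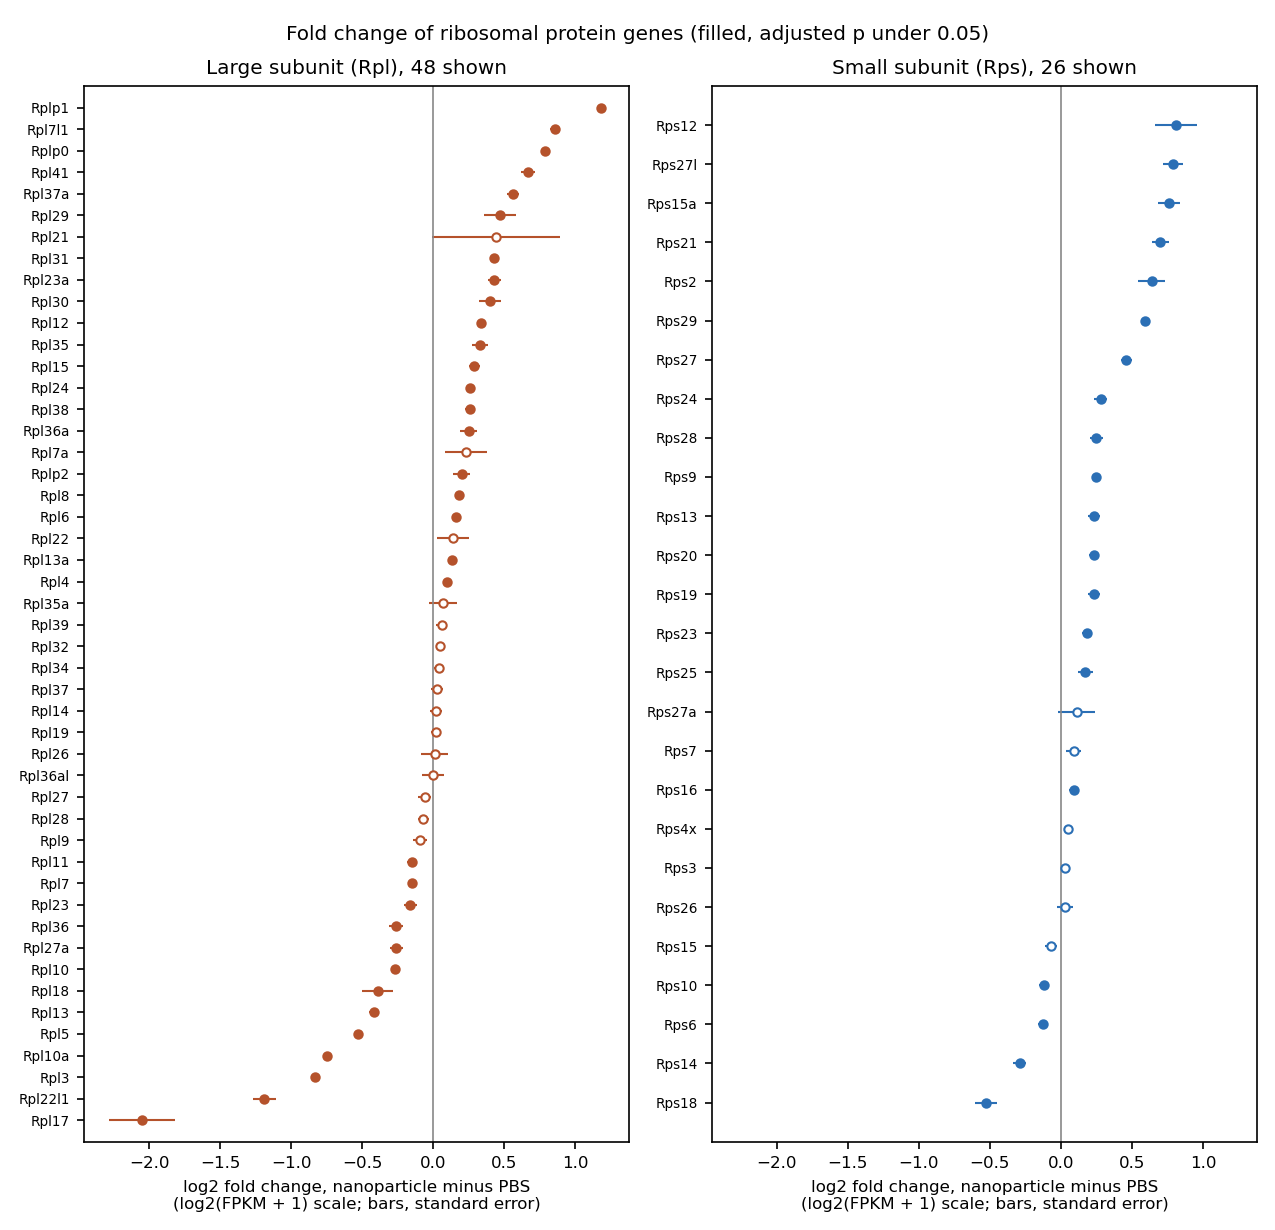
Log2 fold change, nanoparticle minus PBS (x axis, log2(FPKM + 1) scale), with its standard error for 48 large and 26 small subunit genes; filled points were called. Large subunit genes run from -2.05 (Rpl17) to 1.18 (Rplp1) and small subunit genes from -0.53 (Rps18) to 0.81 (Rps12), with directions that hold for the scale as deposited.

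In the small subunit the spread was narrower: the standard deviation of the log2 fold changes was 0.32 over its 30 genes and 0.52 over the 49 of the large subunit. The largest rises were in Rps12, Rps27l, Rps15a, Rps21 and Rps2. Rps12, a protein of the beak of the subunit, measured 332, 426 and 390 FPKM in PBS and 563, 723 and 733 FPKM with nanoparticles. The groups did not overlap, although the first nanoparticle library was lower than the other two, and the log2 fold change was 0.81 with a standard error of 0.146 (adjusted p = 0.00333, limma). Rps10, another beak protein, fell from 771 ± 25.7 to 710 ± 20.4 FPKM (SD, n = 3), and Rps27a, which is made as a fusion with ubiquitin, was not called (692 ± 108 and 741 ± 58.1 FPKM).

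Rps15a measured 65.3, 56.5 and 59.3 FPKM in PBS and 109, 91.9 and 108 FPKM with nanoparticles (log2 fold change 0.76, adjusted p = 3.36e-05, limma). Rps21 went from 402 ± 29.6 to 653 ± 40.5 FPKM (SD, n = 3; log2 fold change 0.70). Rps2, which lies at the entry of the messenger RNA channel, went from 98.2 ± 13.7 to 153 ± 3.06 FPKM (log2 fold change 0.64) and was not called after the trend was removed (0.26, adjusted p = 0.0565, limma). Its neighbour Rps3 was not called as deposited (0.03) but was called lower as TPM (-0.13) and with the trend removed (-0.33). Over the 30 small subunit genes the log2 fold change was lower where the PBS level was higher (Pearson's r = -0.56, Spearman's rho = -0.59), a description in which the PBS libraries enter both quantities.

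Of 9 genes for proteins of the head and decoding region, 7 rose, 1 fell and 1 was not called, with a median log2 fold change of 0.17. Over all genes tested, 40.5% were called higher and 46% lower. Rps29 rose from 254, 271 and 258 FPKM to 393, 394 and 395 FPKM, a log2 fold change of 0.59 (adjusted p = 3.46e-08, limma), and was not called after the trend was removed (-0.04). Rps19, the first gene tied to Diamond-Blackfan anaemia, had a log2 fold change of 0.23 on the FPKM scale, was not called as TPM (0.08) and was lower with the trend removed (-0.12). Rps18, at the contact with the large subunit, was the fall in this region: 180, 219 and 192 FPKM in PBS and 131, 146 and 130 FPKM with nanoparticles, without overlap (log2 fold change -0.53, adjusted p = 0.000336, limma).

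Near the exit of the messenger RNA channel, Rps28 rose from 290 ± 16.1 to 343 ± 16.2 FPKM and Rps14 fell from 958 ± 35.7 to 784 ± 47.0 FPKM (SD, n = 3), while Rps26 was not called. The call of Rps28 was lost as TPM (0.09) and its direction turned with the trend removed (-0.13). Rps26 also turned and was called lower with the trend removed (-0.36). Rps6, whose protein is the substrate of the S6 kinases downstream of mTOR, measured 1067, 1028 and 1076 FPKM in PBS and 986, 929 and 986 FPKM with nanoparticles. This was a fall of 0.13 on the log2 scale (adjusted p = 0.00365, limma). Rps10 fell by 0.12 on the log2 scale.

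Other small subunit genes called higher included Rps24, Rps9, Rps20, Rps13, Rps23, Rps25 and Rps16, with log2 fold changes from 0.09 (Rps16) to 0.28 (Rps24). Rps24, whose transcripts are known for tissue-specific splicing near the 3′ end, went from 611 ± 14.99 to 743 ± 50.1 FPKM, and Rps9 from 1012 ± 36.9 to 1205 ± 3.63 FPKM (SD, n = 3). Of those named here, Rps24, Rps9 and Rps20 stayed called higher as TPM, while after the trend was removed Rps24 was not called (0.00) and the other 6 were called lower, from -0.35 (Rps16) to -0.11 (Rps9). Rps7 and Rps15 were not called, at 574 ± 42.4 and 608 ± 24.6 FPKM for Rps7 and 966 ± 47.6 and 923 ± 31.8 FPKM for Rps15. With the trend removed, Rps7 (-0.28) and Rps15 (-0.76) were called lower.

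The proportion of the large to the small subunit in summed level did not separate the groups. The sum over large subunit genes divided by that over small subunit genes was 1.580, 1.585 and 1.559 in the PBS libraries and 1.569, 1.583 and 1.580 in the nanoparticle libraries. These ranges overlap, and the means were 1.57 ± 0.0140 and 1.58 ± 0.00726 (SD, n = 3). A sum is weighted by its highest genes, and the median level per library behaved otherwise on the scale as deposited. Over tested large subunit genes it went from 499 ± 23.8 to 462 ± 20.1 FPKM (SD, n = 3), with overlap. Over tested small subunit genes it went from 529 ± 5.54 to 638 ± 35.8 FPKM (SD, n = 3), without overlap. This difference was not tested. The 83 genes together summed to 43041 ± 1175 FPKM in PBS and 47083 ± 1205 FPKM with nanoparticles, which was 10.2 ± 0.233% and 9.99 ± 0.236% of the table's sum. Without Rplp0, Rplp1 and Rplp2 the sums were 40818 ± 1130 and 42779 ± 1141 FPKM (SD, n = 3). These stalk genes enter only the large subunit sum, and the subunit ratio without them was not calculated. Rank order was largely kept, with a Spearman correlation of 0.937 between the group means over 79 genes measured in the same 6 libraries, and 42 members were among the 100 highest genes of the table in PBS and 36 with nanoparticles. The highest in PBS was Rpl7 at 1392 ± 1.58 FPKM and the lowest tested was Rpl21 at 2.52 ± 0.234 FPKM (SD, n = 3).

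Among the 8 paralog genes, 4 were tested. Rpl22l1 (ENSMUSG00000039221), a paralog of the RNA-binding protein Rpl22, measured 167, 148 and 166 FPKM in PBS and 61.5, 74.6 and 72.7 FPKM with nanoparticles, well below the PBS libraries. Its log2 fold change was -1.19 with a standard error of 0.081 (adjusted p = 3.98e-06, limma). Rpl22 itself was not called, at 225 ± 13.4 and 250 ± 36.4 FPKM (SD, n = 3), and was called higher (0.26) without nanoparticle library 1. The ratio of Rpl22l1 to Rpl22 was 0.721, 0.631 and 0.793 in PBS and 0.292, 0.264 and 0.283 with nanoparticles.

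Rps27l, a p53-inducible paralog of Rps27, rose from 76.5, 70.7 and 75.3 FPKM to 115, 134 and 138 FPKM, a log2 fold change of 0.79 (adjusted p = 9.73e-06, limma) that was 0.17 after the trend was removed. Rps27 also rose, from 547 ± 28.2 to 751 ± 17.7 FPKM (SD, n = 3), though it was not called with the trend removed (0.02), and the ratio of the paralog to its parent went from 0.136 ± 0.00569 to 0.171 ± 0.0154. Rpl7l1, whose protein is found in nucleolar precursors of the large subunit, rose from 39.7 ± 1.30 to 73.1 ± 1.66 FPKM (log2 fold change 0.86), while Rpl7 fell by 0.15 on the log2 scale. Their ratio went from 0.0285 ± 0.000923 to 0.0583 ± 0.00116.

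Rpl36al was not called, at 170 ± 19.0 and 169 ± 3.09 FPKM, and its parent Rpl36a had a log2 fold change of 0.25 that was not called as TPM (0.10) and turned with the trend removed (-0.13). In each of the paralog ratios other than Rpl36al to Rpl36a the libraries did not overlap, and each of these gave p = 0.1 in the exact permutation test (0.12 adjusted over the 6 ratios). The ratio of Rpl36al to Rpl36a gave an exact permutation p of 0.2. Rpl10l and Rpl39l, known from the testis, Rpl3l, known from muscle, and Rps4l were under 0.3 FPKM in every library and were not tested; Rpl10l was listed at 0 in all 6. Among their parents, Rpl39 (239 ± 3.23 and 249.5 ± 14.6 FPKM) and Rps4x (1256 ± 10.8 and 1298 ± 36.4 FPKM) were not called.

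Ribosomal protein genes have many retrocopies, and fragments can be split between near-identical copies in a way the deposited values do not show. For each of the 79 genes, the share of 50-base words of 1 coding transcript that also occur in transcripts of another annotated gene was counted, on either strand. The median share was 59.9%. Of 46 genes with a share of at least 50%, 21 were called higher, 15 lower and 10 not, and of 33 genes below it 17 were called higher, 3 lower and 13 not. The leading falls lay in the first set, with 78.7% for Rpl17, 85.6% for Rpl3, 77.7% for Rpl10a, 65.6% for Rpl22l1, 93.8% for Rpl5 and 86.7% for Rps18. Among the leading rises, Rps12 had 85.7%, Rps2 71.3%, Rplp1 60%, Rps15a 49.1%, Rpl41 43.9%, Rplp0 41.8%, Rpl37a 38.5% and Rps21 26.4%. The share was 9.19% for Rpl7l1 and 22.4% for Rps27l. Across 79 genes Spearman's rho was -0.20 between this share and the log2 fold change and 0.14 between it and the PBS level. The part of shared sequence in the calls was not tested.

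**Figure D5:**
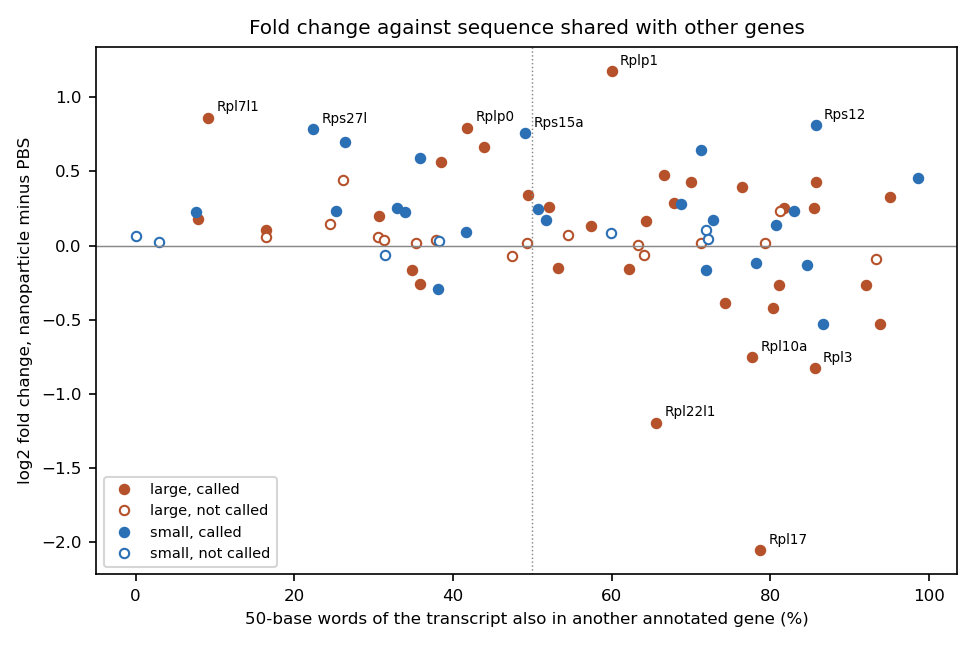
Log2 fold change, nanoparticle minus PBS (y axis), against the percentage of 50-base words that a member's transcript shares with other annotated genes (x axis); filled points were called and the dotted line is at 50%. The 3 genes called lower to the left of the line have small changes, and Rpl17, Rpl22l1, Rpl3 and Rpl10a lie to its right.

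Some copies are listed as genes of their own. Rps18-ps6 stood at 685 ± 62.1 FPKM in PBS, above the 197 ± 20.0 FPKM of Rps18, and fell to 557 ± 33.2 FPKM (SD, n = 3; log2 fold change -0.30, adjusted p = 0.00527, limma). Rpl10-ps3 fell from 61.3 ± 1.29 to 51.2 ± 1.21 FPKM and Rpl9-ps6 from 73.9 ± 4.64 to 62.8 ± 4.07 FPKM. Rpl35rt rose from 30.3 ± 1.87 to 38.8 ± 2.86 FPKM, and Rps27rt was not called. These copies were named after their values were seen.

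Ribosomal genes that the symbol rule leaves out also moved in different directions. Fau, a ubiquitin-like fusion with small subunit protein eS30, had a log2 fold change of 0.18, was not called as TPM (0.03) and was lower with the trend removed (-0.33). Rack1, a signalling scaffold on the small subunit, fell from 942 ± 17.97 to 720 ± 4.63 FPKM, and Rpsa fell from 1807 ± 7.30 to 1591 ± 62.0 FPKM (SD, n = 3). Rps3a1 was not called.

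The 17 genes of the list for Diamond-Blackfan anaemia, an inherited anaemia in which a copy of a ribosomal protein gene is lost, moved in either direction: 8 rose, 4 fell and 5 were not called, with a median log2 fold change of 0.09. Of 16 translation factors and other proteins whose messenger RNAs are known to carry TOP tracts, 4 rose, 9 fell and 3 were not called, with a median of -0.12. The difference from the ribosomal protein genes was not tested. For both lists the shares over all genes tested were 40.5% higher and 46% lower. Eef1b2, an exchange factor of elongation, rose from 297 ± 3.46 to 588 ± 7.21 FPKM, and Eif4b, a cofactor of the helicase eIF4A, fell from 234 ± 2.02 to 81.4 ± 1.63 FPKM (SD, n = 3), with log2 fold changes of 0.98 and -1.51. Eif3e, a subunit of initiation factor eIF3, fell by 1.21 on the log2 scale, and Eef1d, with 0.23, was not called as TPM (0.08).

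Of 13 genes of the mTOR and LARP1 route that controls TOP messenger RNAs, 3 rose, 7 fell and 3 were not called (median -0.14). The share that fell was 53.8%, against 46% of all genes tested. Mlst8 and Akt1s1, subunits of mTOR complex 1, had log2 fold changes of 1.27 and 0.83, and the translation repressor Eif4ebp1 fell by 1.15. Rptor, which brings substrates to the complex, had -0.80 on the FPKM scale and 0.54 after the trend was removed. Among 15 factors of late ribosome assembly and chaperones of single ribosomal proteins, 11 rose, 1 fell and 3 were not called (median 0.73). The share that rose was 73.3%, against 40.5% of all genes tested. Pno1, which acts on the precursor of the small subunit, went from 19.3 ± 0.841 to 61.1 ± 1.40 FPKM, and Grwd1, the chaperone of Rpl3, from 14.5 ± 0.315 to 41.1 ± 1.05 FPKM (SD, n = 3), so that Grwd1 rose where Rpl3 fell. The fall was Efl1, the GTPase that releases eIF6, with -0.42 as deposited and 0.48 with the trend removed.

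Protein genes of other large complexes spread more widely. Of 78 genes for the mitochondrial ribosome, 52 rose, 12 fell and 14 were not called, with a median log2 fold change of 0.43 and a median size of 0.50. Of 37 proteasome genes tested, 30 rose, 6 fell and 1 was not called, with a median of 0.54. The shares that rose were 66.7% and 81.1%, against 40.5% of all genes tested. The cytosolic ribosomal protein genes had a median of 0.11 and a median size of 0.23 on the same scale, and these differences between lists are descriptions and were not tested. Tested against a change of 1.5-fold, 4 cytosolic ribosomal protein genes were called higher (Rplp0, Rplp1, Rpl7l1 and Rps27l) and 4 lower (Rpl3, Rpl10a, Rpl17 and Rpl22l1).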

How the data were processed

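Values are FPKM in 1 table that the authors deposited. The header names no unit, which was inferred from the values. STAR and featureCounts were used with builds GRCm38 and mm10, per the submitters' processing notes, without versions; the sources used here name no program for the FPKM step. RNA was TRIzol-extracted and enriched for mRNA, per the labels' protocols.

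The 701 features without a gene identifier (0.631% to 0.67% of each library's sum) were left out of the tests. Genes at 1 FPKM or more in at least 3 of 6 libraries (10863) were fitted as log2(FPKM + 1) with limma 3.58.1 in R 4.3.3 (trend and robust settings, no replicate block), nanoparticle minus PBS, with two-sided p-values, Benjamini-Hochberg adjustment over all of them and calls at an adjusted p under 0.05. This scale understates the change of low genes. The fit was tested on simulated data. Ratios between genes were compared by exact permutation. Spans and lengths are from GENCODE M21. The trend was removed with splines of 5 degrees of freedom on log span and log exonic length in each library. Python 3.11.15, numpy 2.4.6, pandas 2.3.3, scipy 1.17.1 and matplotlib 3.10.9 were used.

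The members and gene lists were chosen with earlier results of these data known. Genes named are the 5 largest rises and 5 largest falls per subunit among called genes without overlap, all stalk, 5S particle and paralog genes with their parents, Rps6, Rpl13a, the untested members, and the 2 largest rises and falls of each other list; a gene named outside this rule was chosen after its values were seen. Some genes that the rule or the lists hold are not reported here. Alternatives were another pseudocount, other filters and thresholds, other scalings, the trend removed, a replicate block, each library left out, and, chosen after seeing the data, members with 50% or more shared 50-base words left out.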

Additional observations from a re-analysis of the deposited data

How the results depend on the processing

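As deposited, 38 ribosomal protein genes were called higher and 18 lower. A pseudocount of 0.1, no filter, a filter at 5 FPKM, median-of-ratios scaling and leaving mitochondrially encoded genes out of the totals gave 38 or 39 higher and 18 lower. A threshold of 0.01 gave 34 and 17. A test against a 1.5-fold change gave 4 and 4, since it asks for larger changes. As TPM, 24 were higher and 32 lower, with medians of -0.10 (large subunit) and 0.02 (small subunit). With the span and length trend removed, 9 were higher and 57 lower, with medians of -0.32 and -0.25, and 20 genes called higher as deposited were called lower; the cause was not tested. Without members that share at least 50% of their 50-base words, 17 were higher and 3 lower of 33, with a large subunit median of 0.10. Leaving out each library in turn gave 37 to 41 higher and 18 to 20 lower, a large subunit median of 0.04 to 0.10 (highest without nanoparticle library 1) and a small subunit median of 0.13 to 0.21.

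Directions turned with the trend removed for Rpl12 (-0.04), Rps19 (-0.12), Rpl13a (-0.24), Rplp2 (-0.17), Rpl23a (-0.16), Rps29 (-0.04), Rpl36al (-0.38), Rpl8 (-0.24), Rps28 (-0.13), Fau (-0.33), Rpl39 (-0.36), Rps4x (-0.35), Rpl36a (-0.13), Efl1 (0.48) and Rptor (0.54). They turned as TPM for Rpl13a (-0.02), Rpl39 (-0.10) and Rps4x (-0.11). Rpl36al (0.00 and not called as deposited) was called lower without PBS library 3 (-0.09, adjusted p = 0.0294, limma) and ranged from there to 0.07 with single libraries left out. Over the values under an alternative of the genes that the naming rule chose, 795 kept direction and side of the threshold, 47 lost the call, 3 gained it and 19 turned. Other genes named in the text are not in these counts, and turns with the trend removed are given there for only part of them.

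The libraries carry replicate numbers, and the labels do not say whether equal numbers are paired. Over all genes tested, libraries of the same number did not deviate together (correlations of -0.0141, -0.0428 and 0.0411). With 3 libraries a group this cannot show whether they are paired. With a replicate block, 39 genes were called higher and 19 lower, with medians of 0.06 and 0.17, and among named genes Rpl18 lost its call (adjusted p = 0.0923, limma). The depth is unknown, so the precision of low genes such as Rpl21 is known only from the spread between 3 libraries.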
